A study of Mus musculus with 4 samples.

Results

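The major urinary proteins are small secreted lipocalins that the mouse liver makes in large amounts and that are passed into the urine, where they bind volatile pheromones. The genes analysed here were Mup1, Mup2, Mup3, Mup5, Mup11 and Mup20, taken as every non-control probe whose gene name on the array was one of these. That gave 6 genes of 37074 gene names and 10 probes of 56605 probes on the array. The genes were chosen by their AAI ratios on these same arrays, so those ratios and the counts over members are given as a description without a test.

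Aristolochic acid type I (AAI) is a plant nephrotoxin that liver enzymes metabolise. Liver RNA of wild-type C57BL/6 mice labelled as 6 weeks old was hybridised to 4 single-colour arrays, 1 for each of 4 groups. AAI was injected intraperitoneally on 5 days per week for 3 weeks, at 5 mg/kg/day in females and 2 mg/kg/day in males, and the control mice of each sex received corn oil. Each array carried RNA pooled from 5 mice. A group was thus a single measurement without replicate error, sex and AAI dose cannot be told apart between the AAI groups, and fewer cells of a type and less RNA per cell cannot be told apart in such bulk RNA.

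Mup genes are arranged in a tandem cluster on mouse chromosome 4, and the RefSeq table used here lists 22 of them, all on chromosome 4. Their transcription in hepatocytes is known to depend on growth hormone, with further input from androgens, glucocorticoids and thyroid hormone, and male mice usually make more of the proteins than females. Mup20, also called darcin, is the male pheromone that attracts females. Mup4 and Mup5 are best known from exocrine glands, although the Mup5 probe was bright in these livers.

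Because the genes are near copies of each other, the probe sequences matter for reading the values. All probes are 60 bases long and are written here 5′ to 3′ as the scanner files give them, with mm9 positions. The Mup5 probe, at chr4:61496097-61496156 on the minus strand, is shown because it gave one of the deepest decreases:
Mup5: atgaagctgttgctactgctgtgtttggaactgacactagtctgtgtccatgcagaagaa
The Mup1 probe, at chr4:60512590-60512649 on the minus strand, is shown because its signal was level in males and lower in females:
Mup1: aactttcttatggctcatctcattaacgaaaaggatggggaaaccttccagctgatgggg
A Mup3 probe, at chr4:61745794-61745853, covers the same 60-base window as probes for transcripts of the pseudogenes Mup-ps7, Mup-ps8 and Mup-ps12. They are shown because the Mup-ps7 probe gave a lower ratio in males than the other 3, and capitals mark the 8, 9 and 8 bases at which the pseudogene probes differ from the Mup3 probe:
Mup3: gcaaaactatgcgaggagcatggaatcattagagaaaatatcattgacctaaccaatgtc
Mup-ps7: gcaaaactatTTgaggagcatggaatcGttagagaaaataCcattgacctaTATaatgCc
Mup-ps8: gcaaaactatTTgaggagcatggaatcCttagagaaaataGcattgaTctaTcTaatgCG
Mup-ps12: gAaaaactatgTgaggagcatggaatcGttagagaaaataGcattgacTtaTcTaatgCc
The brightest Mup20 probe, at chr4:61713671-61713730, differs from a probe for a Mup-ps21 transcript at 6 of 60 bases, in capitals:
Mup20: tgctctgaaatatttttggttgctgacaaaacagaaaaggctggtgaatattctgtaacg
Mup-ps21: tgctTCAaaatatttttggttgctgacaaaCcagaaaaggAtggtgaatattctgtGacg
Which transcripts a probe also captured was not tested, so each value belongs to a probe and its gene name is uncertain within the family. Positions were read from the scanner output. The other deposited table, which covers all 4 arrays, places the Mup1 probe, the Mup2 probe and the dimmer Mup20 probe elsewhere on chromosome 4, so the positions of these probes are uncertain.

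Values are normalized log2 signals, on which 1 unit is a 2-fold change, and levels are compared between arrays at the same probe, not between probes. A gene is represented by its brightest probe. Every one of the 10 member probes was well above background on all 4 arrays, and none had a saturated pixel. The scanning software put the error of a member's log2 signal at 0.144 to 0.182, and the median SD between probes of a gene was 0.252 for the log2 ratio in females, 0.238 in males and 0.234 between the sexes. These are technical errors and say nothing about the spread between mice.

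In AAI-treated females, all 6 Mup genes had lower signals than in females given corn oil, by 9.80-fold to 95.0-fold. At least 2-fold lower signals were found for 6 of 6 members, against 3.09% of the 31682 genes measured, and 0 were at least 2-fold higher, against 1.37%. Their median log2 ratio was -4.82, and that of all genes was 0.04. Among 29714 genes above background on both arrays, Mup11 had the second lowest ratio, with Mup2 and Mup5 next at ranks 3 and 4, Mup20 at rank 12, Mup1 at rank 16 and Mup3 at rank 21.

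In AAI-treated males the same genes split. Mup11 fell furthest, Mup2, Mup3 and Mup5 were between 3.50-fold and 3.85-fold lower, and Mup1 and Mup20 stayed within 2-fold of the corn oil value. That made 4 of 6 members at least 2-fold lower, against 4.59% of 30539 genes measured. The members' median log2 ratio was -1.81, beside 0.00 for all genes.

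Mup11 encodes a secreted urinary protein. Its brightest probe read 12.11 in females given corn oil, 5.54 in AAI-treated females, 15.10 in males given corn oil and 10.59 in AAI-treated males. The log2 ratio for AAI was -6.57 in females and -4.51 in males, or 95.0-fold and 22.8-fold lower. The female size depends on the background treatment of a dim AAI spot, with a processed signal of 52.5, and was -4.93 with normexp correction and -5.59 with no background subtraction. The other Mup11 probe read 11.42, 6.52, 14.46 and 9.51 in the same order. At both probes the AAI array of each sex was far below its control, and the order ran from males given corn oil through females given corn oil and AAI-treated males to AAI-treated females, with every step larger than the SD between probes.

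Mup2, another secreted member, read 18.19 in females given corn oil, 11.86 in AAI-treated females, 18.62 in males given corn oil and 16.81 in AAI-treated males. Its log2 ratio for AAI was -6.33 in females and -1.81 in males. The Mup5 probe behaved alike, at 18.35, 12.61, 19.15 and 17.34 on these arrays. Its ratios were -5.74 in females and -1.81 in males. For both genes the AAI-treated females were lowest and the males given corn oil highest.

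Mup3 is a more divergent member near the far end of the cluster. Its brightest probe read 18.27 in females given corn oil, 14.98 in AAI-treated females, 18.89 in males given corn oil and 16.94 in AAI-treated males. The ratio was -3.29 in females and -1.95 in males. The probe printed above gave 17.83, 14.78, 18.46 and 17.15, so both probes were lower with AAI in each sex. The remaining Mup3 probe, designed to the cDNA AK132124, departed from them. It read 8.57 and 7.86 in females and, in males, 8.17 with AAI, which was 0.17 above the corn oil array, so it stayed within 2-fold in both sexes.

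Mup20 read 18.16 in females given corn oil, 14.27 in AAI-treated females, 18.59 in males given corn oil and 18.10 in AAI-treated males at its brightest probe. The ratio was -3.89 in females and -0.49 in males. Its other probe read 17.28, 15.08, 18.73 and 17.43, and its ratios of -2.20 and -1.29 passed 2-fold in both sexes. The darcin call in males therefore depended on the probe used.

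Mup1, among the most abundant urinary proteins, read 19.01 in females given corn oil, 15.38 in AAI-treated females, 18.90 in males given corn oil and 18.89 in AAI-treated males. In linear processed signal before normalization these were 535000, 45423, 534721 and 459000. The female ratio was -3.63, whereas the male ratio of -0.01 and the difference of -0.10 between the control sexes were smaller than the SD between probes. At this probe the arrays other than that of the AAI-treated females thus differed by less than this SD, which is a median over genes with several probes. Mup1 has a single probe, near the top of the scale, so whether its level was equal on these arrays was not tested.

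**Figure D1:**
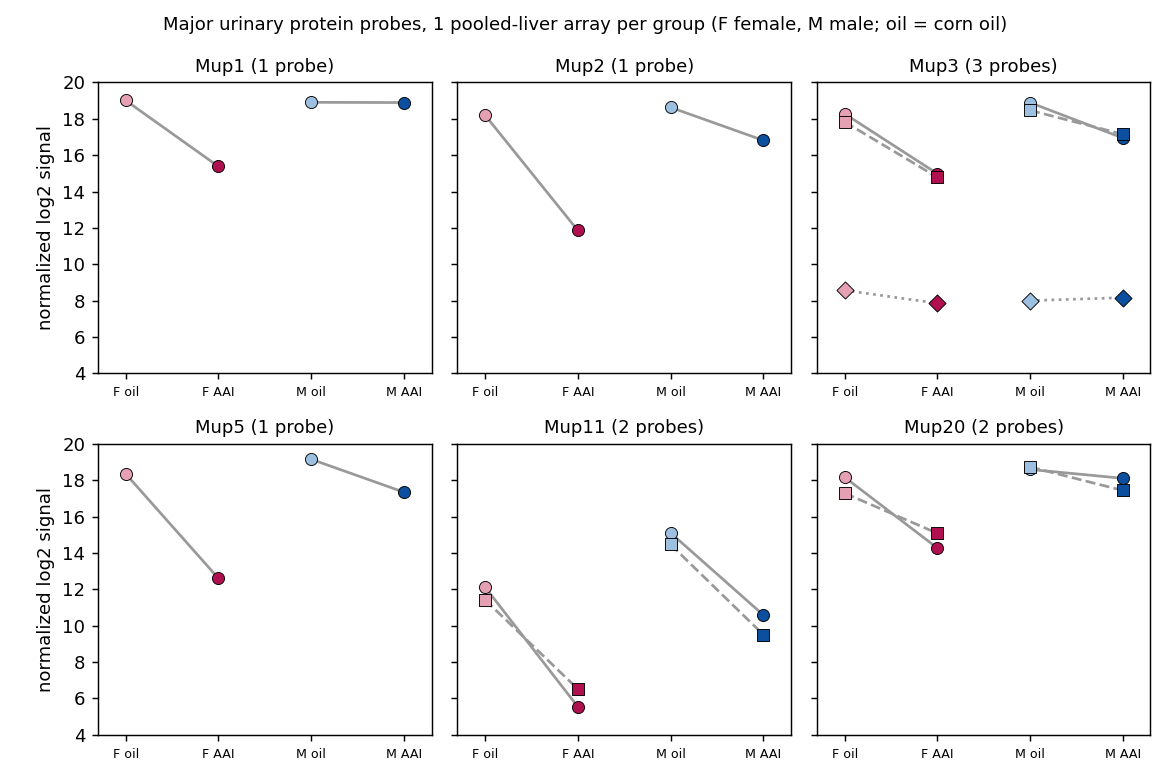
Normalized log2 signal (vertical axis) of the 10 probes of 6 Mup genes on 4 pooled-liver arrays, 1 symbol per probe, with lines joining the corn oil and AAI arrays of a sex. Every line falls in females, least at the dim Mup3 probe, from 8.57 to 7.86, and the male lines range from flat at Mup1 to steep at Mup11.

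In the controls, male over female, Mup11 was the member at least 2-fold higher, with a log2 ratio of 2.99 and 15.10 against 12.11. That is 1 of 6 members, against 3.83% of 30891 genes measured, and 0 were at least 2-fold lower, against 1.86%. The control arrays are the same as in the AAI comparisons. The other members ranged from -0.10 for Mup1 to 0.80 for Mup5, and the median was 0.53, beside -0.03 for all genes. Over probes, 3 of 10 were at least 2-fold higher in males, both Mup11 probes and the second Mup20 probe at 1.44, against 3.62% of 45462 probes.

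The array carried 18 further probes for Mup genes and pseudogenes under 14 names, of which 17 had a value on all arrays. All 17 were at least 2-fold lower in AAI-treated females, with a median log2 ratio of -3.20, and 11 of 17 were at least 2-fold lower in AAI-treated males, with a median of -1.59. Bounds are counted at their value where an AAI spot was not well above background, which was so for Mup-ps15 in females and for 1 Mup-ps12 probe in both sexes. Over all probes these shares were 3.27% and 4.37%. Mup4 read 18.13, 15.55, 18.02 and 18.13 in females given corn oil, AAI-treated females, males given corn oil and AAI-treated males. Mup19 read 18.99, 16.06, 18.87 and 18.99, and LOC100048884, whose transcript is Mup18 in RefSeq, read 18.33, 15.59, 18.19 and 18.33. These genes fell in the female pool, with male ratios between 0.11 and 0.14.

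The 2 probes of Mup6 moved in the same direction, though in females by unlike amounts, with log2 ratios of -5.59 and -2.93. Those of Mup21 differed from each other in males. The Mup6 probes read 15.85, 10.27, 17.18 and 15.04, and 15.71, 12.78, 18.13 and 15.45, so that both were lower with AAI in each sex and higher in control males. The brighter Mup21 probe read 19.07, 15.80, 18.99 and 19.04, with a male ratio of 0.05. Its other probe read 15.37, 11.26, 17.76 and 13.52, with a male ratio of -4.25. Mup17 was marked as non-uniform on the array of males given corn oil and has no normalized value. Its processed signal was 299000 in females given corn oil, 34203 in AAI-treated females and 276000 in AAI-treated males.

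The pseudogene transcripts that share a window with Mup3 fell in both sexes. In females the log2 ratio was -3.20 for Mup-ps7, -4.61 for Mup-ps8 and -4.44 for the Mup-ps12 transcript. In males it was -3.46, -1.24 and -1.71, beside -1.31 for the Mup3 probe of that window. Mup-ps15 went from 10.76 to 3.69 in females, which was not well above background, a log2 ratio of at most -6.96. The dim Mup-ps12 probe had ratios of at most -1.10 in females and at most -1.59 in males.

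**Figure D2:**
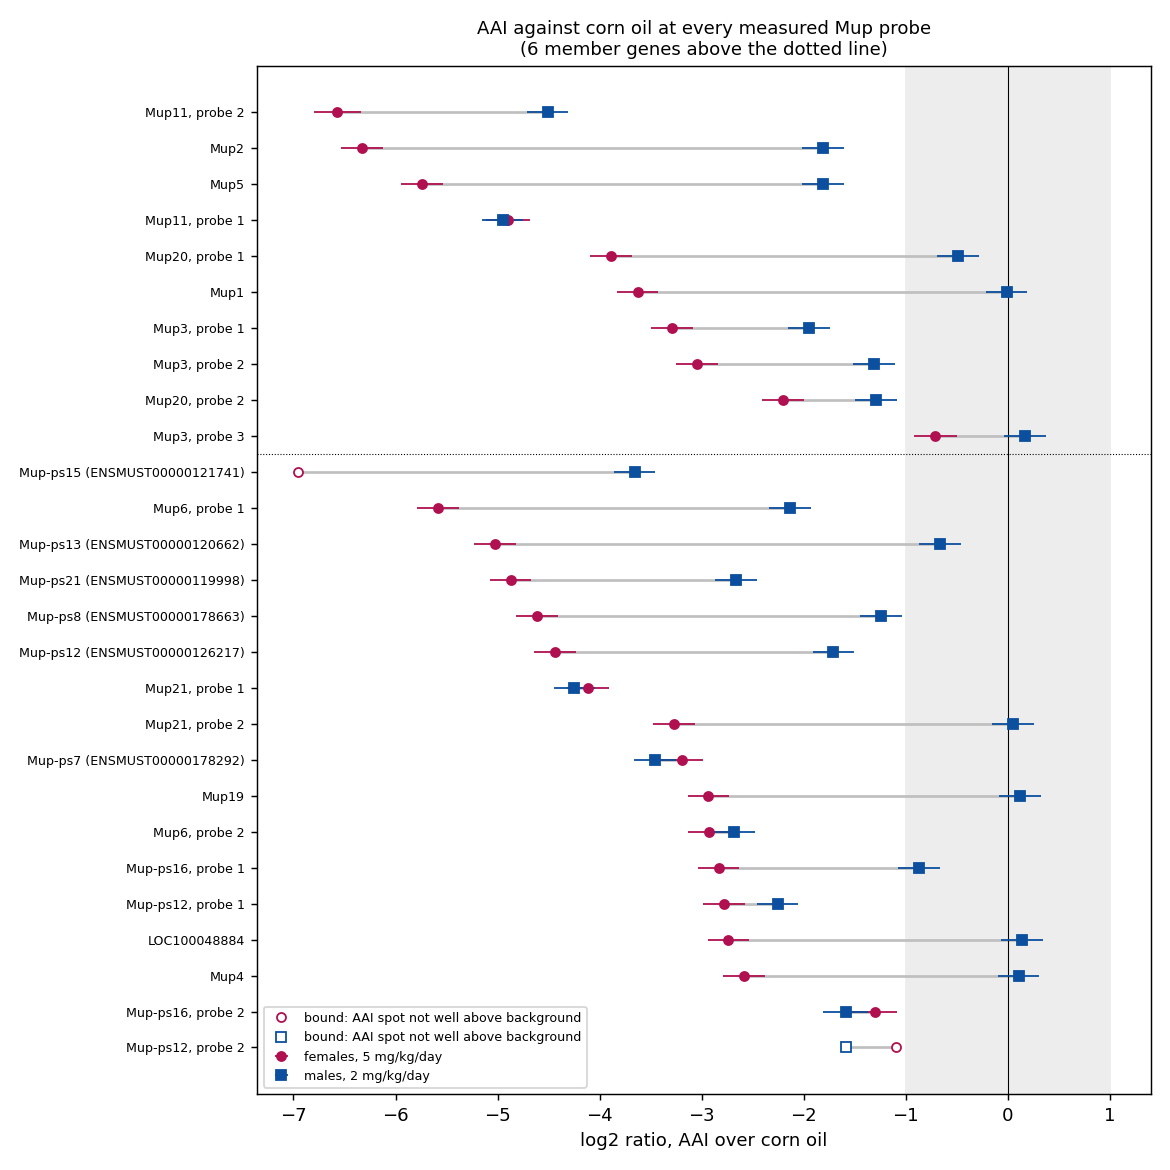
Log2 ratio of AAI over corn oil (horizontal axis) at the 27 Mup probes with a value, females as circles and males as squares; bars are the scanning software's error, open symbols are bounds where the AAI spot was not well above background, and the grey band is a change of less than 2-fold. All female values lie below 0, from a bound of -6.96 to -0.71, while male values reach from -4.95 to 0.17.

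The members were chosen by their AAI ratios, so the position of the Mup probes on the signal scale is given as a description. The brightest probe of each normalized array was at 19.38. In males, 11 Mup probes lay within 1 log2 unit of it on the corn oil array, and their ratios ran from -1.95 to 0.12 with a median of -0.87. The 16 dimmer probes had a median of -2.20, with 1 bound among them, and 13 were at least 2-fold lower, against 5 of the 11. In females 3 probes lay within 1 unit, with ratios of -3.63 to -2.93 and a median of -3.27. The 24 dimmer probes in females had a median of -3.59, bounds included. The probes share the arrays and partly the transcripts, and the part of the position in the ratios was not tested. No spot was marked as saturated.

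**Figure D3:**
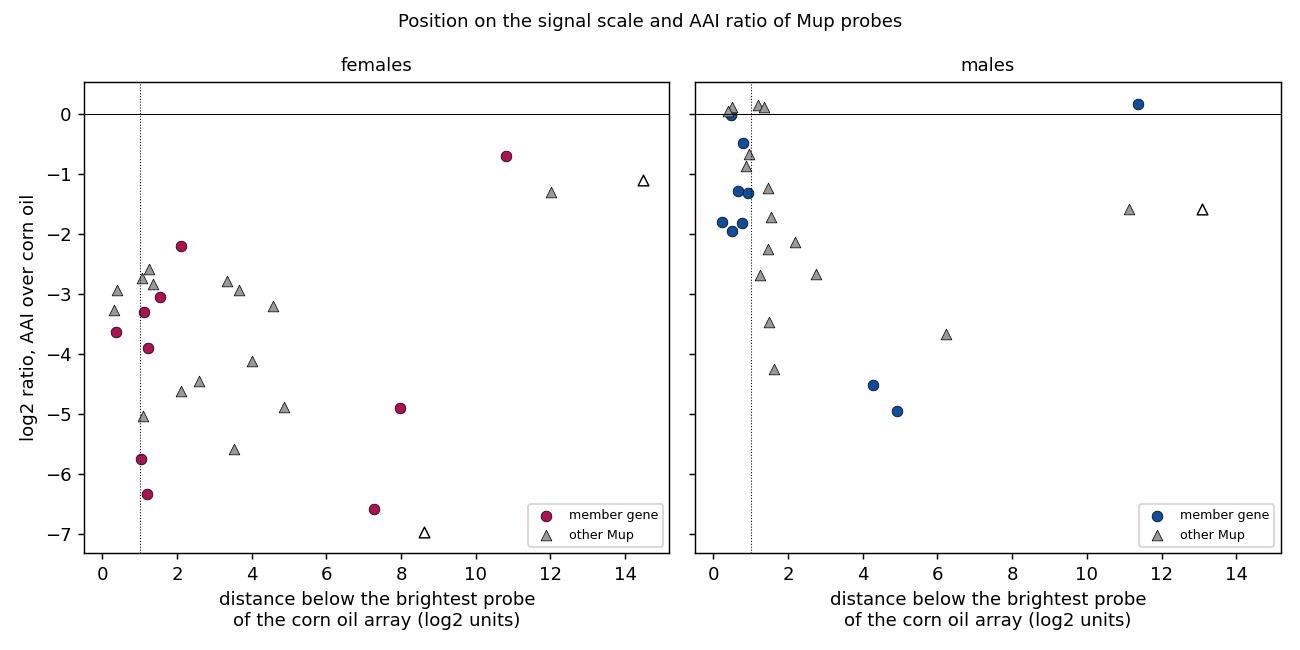
Log2 ratio of AAI over corn oil (vertical axis) against the distance of each Mup probe below the brightest probe of the corn oil array of that sex (horizontal axis, log2 units), circles for member genes and triangles for other Mup probes, open where the ratio is a bound; the dotted line marks 1 unit. In males the probes left of the line lie between -1.95 and 0.12, and in females all 3 lie below -2.9.

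By root mean square distance between centred 4-array profiles, over 32106 genes, the 5 genes with names outside the Mup series that were nearest to the members' median profile were led by Mup-ps8 at 0.117, Mup-ps12 at 0.147 and Mup-ps13 at 0.310. Next were 4930546K05Rik at 0.556 and Mup-ps21 at 0.573, so 4 of the 5 were Mup pseudogene transcripts, which the array lists under transcript identifiers. The exception, 4930546K05Rik, read 7.28 in females given corn oil, 2.73 and not well above background in AAI-treated females, 8.57 in males given corn oil and 5.62 in AAI-treated males, so its distance rests partly on a value below that limit. With 4 arrays such a likeness is a description.

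Sex-biased liver genes, which growth hormone pulses set in the mouse, were compared as lists. Of 15 male-biased genes, 11 were at least 2-fold higher in control males, against 3.83% of all genes. That count shares the array of males given corn oil with the AAI comparison. In AAI-treated males 11 of 15 were at least 2-fold lower, against 4.59% of all genes, with a median log2 ratio of -2.50. The steroid enzyme gene Hsd3b5 went from 14.60 to 4.55, which was not well above background, a log2 ratio of at most -9.89. The transporter Slco1a1 went from 12.49 to 6.71, the fatty acid elongase Elovl3 from 13.58 to 7.87, and the fatty acid hydroxylase Cyp4a12a from 13.42 to 8.88. In AAI-treated females the list's median was 0.01. There Slco1a1 (-2.26), Susd4 (-1.29) and C6 (-1.09) were lower and Gstp1 (1.55) was higher.

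Of 15 female-biased genes, 12 were at least 2-fold lower in control males than in control females, against 1.86% of all genes. That count, too, shares the array of males given corn oil with the AAI comparison. In AAI-treated males 7 of the 14 measured were at least 2-fold higher, against 3.51% of all genes, with a median of 1.45. Among them were the cytochromes P450 Cyp2b9, from 8.87 to 14.15, and Cyp2b13, from 6.19 to 10.06, and the sulfotransferase Sult3a1, from 6.54 to 9.91. In AAI-treated females the median was -0.26, and Cyp3a44 (-3.47) and Sult2a1 (-1.03) were at least 2-fold lower. Side by side, the Mup median was -4.82 in females, where the male-biased median was 0.01, and -1.81 in males, where it was -2.50. Of the male-biased genes, Hsd3b5 read 3.89 in females given corn oil, not well above background, so its female ratio is a bound. Cyp4a12a read 7.07, Elovl3 7.69 and Slco1a1 8.60 there, while others of the list were bright, such as Serpina1e at 18.87. How far low control levels limit the female ratios was not tested.

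**Figure D4:**
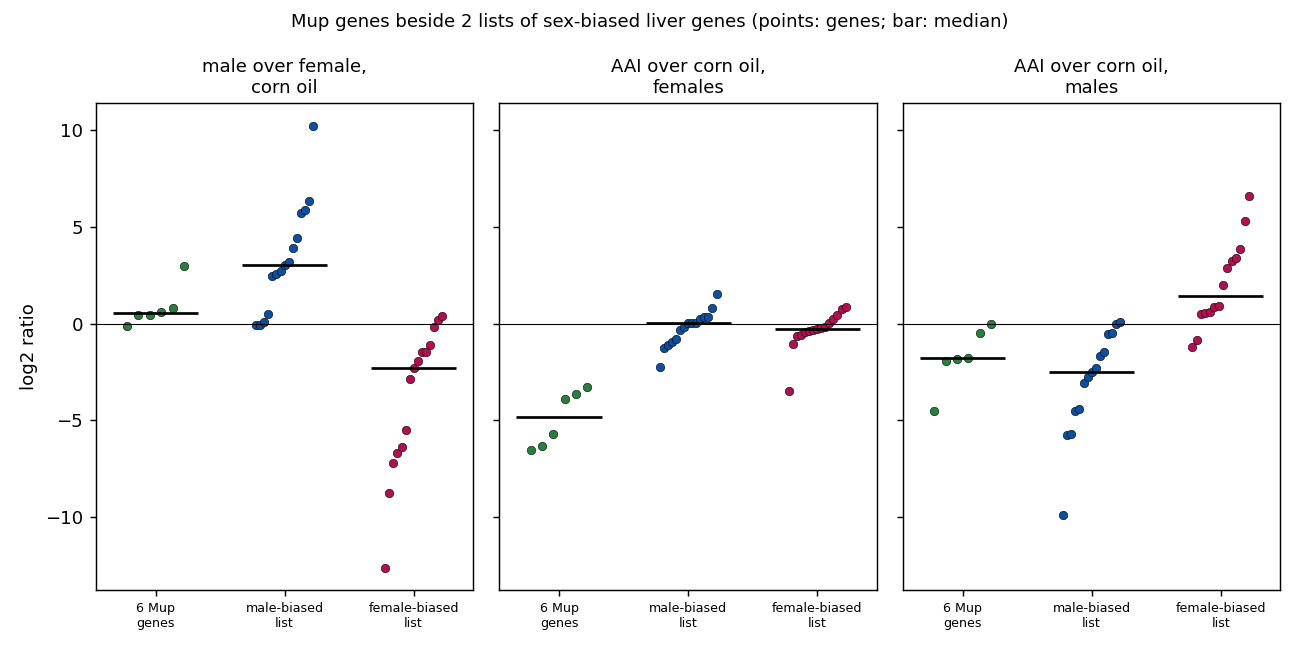
Log2 ratio (vertical axis) of the 6 Mup genes and of the measured genes of 2 lists of 15 sex-biased liver genes, in males over females given corn oil and in AAI over corn oil for each sex, 1 point per gene with the median as a bar. In females given AAI the Mup median is -4.82 while the lists lie at 0.01 and -0.26, and in males the Mup and male-biased medians are -1.81 and -2.50 with the female-biased median at 1.45.

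Genes of growth hormone signalling mostly stayed within 2-fold, as did most of all genes. Of 12, 1 was at least 2-fold lower in AAI-treated females, the feedback inhibitor Socs2 at -1.15, and 1 was higher, Socs3 at 1.07. Over all genes these shares were 3.09% and 1.37%. In AAI-treated males none was at least 2-fold lower, against 4.59% of all genes. There Socs3 was higher at 1.20, against 3.51% of all genes. The list's median was -0.15 in females and -0.09 in males. Of 13 transcription factors and receptors known for Mup genes, 2 were at least 2-fold lower in AAI-treated females, against 3.09% of all genes. These were the homeodomain factor Onecut1 (-1.31) and Cebpb (-1.07). In AAI-treated males 1 was, Foxa1 (-1.11), against 4.59%. Onecut1 was at -0.97 and Cebpb at -0.18 in AAI-treated males, and Foxa1 was at -0.61 in AAI-treated females. The median of this list was -0.33 in females and -0.20 in males. Onecut1 was also higher in control males than in control females, by 1.65.

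RefSeq promoter windows (GRCm38.p6) were at hand for 3 members, and the 200 bases that end with the TATA box are shown because these genes moved together in females. Capitals mark TATATAA and the core ATCAAT that the Onecut1 protein, also called HNF6, is known to bind. The windows, all on the minus strand, are chr4:60139877-60140076 for Mup2, chr4:62087322-62087521 for Mup3 and chr4:60662391-60662590 for Mup11:
Mup2: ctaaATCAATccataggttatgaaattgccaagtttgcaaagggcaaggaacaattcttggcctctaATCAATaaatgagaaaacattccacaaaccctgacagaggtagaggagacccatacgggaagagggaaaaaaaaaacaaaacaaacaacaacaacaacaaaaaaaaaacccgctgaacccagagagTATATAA
Mup3: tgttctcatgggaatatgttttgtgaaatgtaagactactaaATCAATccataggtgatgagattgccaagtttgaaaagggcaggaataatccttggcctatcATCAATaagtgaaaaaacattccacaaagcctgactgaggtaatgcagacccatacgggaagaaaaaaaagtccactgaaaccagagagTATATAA
Mup11: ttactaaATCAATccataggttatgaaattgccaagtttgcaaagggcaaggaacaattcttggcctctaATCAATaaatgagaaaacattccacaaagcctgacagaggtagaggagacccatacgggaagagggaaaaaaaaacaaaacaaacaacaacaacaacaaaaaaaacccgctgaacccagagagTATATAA
Searched on both strands over windows from before to just after each start, ATCAAT was in 14 of 14 Mup windows and in 7.54% of 32851 windows of all genes. TATATAA was in 13 of 14 and in 3.24%. The STAT5-type sequence TTCNNNGAA was in 0 of 14 and in 8.30%. The Mup genes are near copies of each other, so matches in their windows are not independent observations. The counts were not tested against the shares of all windows. A match describes letters and not a binding site, and these windows leave out distant enhancers.

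Other lipocalin genes were listed as relatives of the Mup genes. Of 22, 19 were measured in females, with 1 at least 2-fold lower (Ptgds, -1.33), 1 higher (Orm3, 1.17) and a median of 0.14. Over all genes the female shares were 3.09% and 1.37%. In males 20 were measured, with 2 at least 2-fold lower, 3 higher and a median of -0.08. Over all genes the male shares were 4.59% and 3.51%. The acute phase genes Lcn2 and Orm3 rose from 10.56 to 14.61 and from 10.24 to 13.26, and Apod from 8.69 to 10.14. Lcn12 read 10.60 and 5.50, the lower value being a spot whose processed signal equals the background value.

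Hepatocyte genes were listed beside markers of other tissues. The arrays were normalized to the same distribution, so their values do not measure the amount of liver RNA. None of 13 plasma protein and enzyme genes differed by 2-fold with AAI in either sex, with log2 ratios of -0.15 to 0.75 in females and -0.94 to 0.79 in males. Most of all genes stayed within 2-fold too. In females 3.09% of all genes were at least 2-fold lower and 1.37% higher, and in males 4.59% and 3.51%. The AAI counts of the other lists below stand against the same shares. In control males 1 of the 13 was at least 2-fold lower than in control females, against 1.86% of all genes, and 1 was higher, against 3.83%. Albumin, Alb, read 19.12, 19.12, 19.12 and 19.15 in females given corn oil, AAI-treated females, males given corn oil and AAI-treated males, near the top of the scale. Some markers of other tissues did differ. All 12 skeletal muscle markers were at least 2-fold higher with AAI in both sexes, with a median of 6.04 in females and 6.17 in males, and their summed linear signal was 1710 and 62454 in females and 7686 and 500058 in males. Of 14 adrenal markers, 0 of the 13 measured passed 2-fold in females, while of the 14 measured in males 10 were higher and 1, Mc2r, was lower (-2.07), and the male summed signal went from 9712 to 78578. Of 8 fat markers, 2 of the 7 measured were higher in females and 6 of 8 in males, from 8925 to 90009 in the latter. Of the kidney markers and of the exocrine gland markers, 7 each were measured in females and 6 each in males, and 0 passed 2-fold with AAI. With so few genes, 0 is near the shares of all genes and does not show that these tissues were absent. Between the control sexes, 11 of 12 muscle markers were at least 2-fold higher in males, against 3.83% of all genes, with a median of 2.92. The part of these tissues in the Mup ratios was not tested.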

How the data were processed

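Liver RNA of 4 groups of mice, pooled from 5 mice each, was measured on 4 single-colour arrays. Per the labels and the file headers, the authors quantified spots with Feature Extraction 10.5.1.1, on a design annotated on mm9, and deposited processed spot intensity for each array and a table of quantile-normalized intensity. The files of females given corn oil and of AAI-treated males hold rounded values and 70 gene names turned into dates, so names were taken from the other files. Here log2 processed intensity was quantile normalized over 56495 probes without control and outlier spots, and a gene was its brightest probe. Changed means at least 2-fold, with the probe well above background on at least 1 of both arrays. Whole-array shares of probes above background ranged from 74.6% to 81.4%. No p-value was computed, since each group had a single array. Python 3.11.15, NumPy 2.4.6, pandas 2.3.3, R 4.3.3 and limma 3.58.1 (normexp, offset 50) were used, and the ratio calculation was tested on simulated data. Motif and probe searches used exact letters. Named were all members, the other Mup genes, up to 4 genes per list and comparison that differed by at least 2-fold, and the 5 nearest profiles; Alb, and Mup pseudogene transcripts, were named besides. A list gene that the rule would name is not reported here. The members and gene lists were chosen with earlier results of these data known. The 11 alternatives are given in the closing section.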

Additional observations from a re-analysis of the deposited data

Results flagged for a closer look

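In each case below the AAI ratio had opposite signs in females and males. With 1 array per group the difference was not tested, and the doses differ between the sexes. The Mup3 cDNA probe was -0.71 in females and 0.17 in males. LOC100048884 was -2.74 and 0.14, and Mup19 was -2.93 and 0.12. The brighter Mup21 probe was -3.27 and 0.0479, and Mup4 was -2.58 and 0.11. At these 5 probes the male value was smaller than the median SD between probes of a gene. The median of the other lipocalins was 0.14 in females and -0.0753 in males. The median of the male-biased liver genes was 0.00988 and -2.50, and that of the female-biased genes was -0.26 and 1.45. Both lipocalin medians and the female median of the male-biased genes were likewise smaller than that SD, so their signs carry little weight. The female median of the female-biased genes was about as large as the SD.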

How the results depend on the processing

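The counts of members past 2-fold were 6 in females, 4 in males and 1 between the control sexes under all 11 alternatives, a 3-fold threshold included. The median log2 ratio in females moved from -4.82 to -4.42 with normexp background correction. In males it moved from -1.81 to -1.57 with normexp, to -1.56 without the multiplicative trend correction, to -1.57 with no background subtraction, and to -1.42 with all probes of a gene averaged. The averaging also gave Mup3 ratios of -2.35 in females and -1.03 in males, Mup20 ratios of -3.05 and -0.89, and control sex ratios of 0.23 for Mup3 and 0.94 for Mup20. Mup11 in females ranged from -6.69 to -4.93. No called ratio changed sign. No paired analysis was possible because each group is 1 array. The limits are 1 pool per group, bright probes near the top of the scale and probes shared within the family, and the cause of the changes between settings was not tested.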

Other observations

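Of 6 immune cell markers, 2 were at least 2-fold lower in AAI-treated females, against 3.09% of all genes. In AAI-treated males 0 were, against 4.59%. The Kupffer cell lectin Clec4f read 13.44 in females given corn oil and 12.03 in AAI-treated females, against 13.01 and 12.12 in males. The macrophage receptor Adgre1 read 11.28 and 9.89 in females and 11.28 and 10.37 in males.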
